A study of Mus musculus with 6 samples.

Results

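The cytosolic ribosomal protein genes encode the proteins that, together with ribosomal RNA, build the 2 subunits of the ribosome that translates messenger RNA in the cytoplasm. They were taken from the count table by symbol: every row named Rpl or Rps followed by a number and at most 1 lower-case letter, plus Rplp0, Rplp1, Rplp2 and Rpsa. This gave 79 of the 14788 rows, 47 for the large subunit and 32 for the small subunit. The study sequenced RNA from type-2 conventional dendritic cells (cDC2s), a dendritic cell subset specialised in showing antigen to CD4 T cells, isolated from the spleens of C57BL/6 mice. Of its 6 libraries, 3 were of wild-type (WT) genotype and 3 of Arhgef1-/- genotype, called the knockout here. Arhgef1 encodes a nucleotide exchange factor for RhoA, a small GTPase that acts on the cytoskeleton. The labels do not give the deleted part of the gene, the age of the animals, the way the cells were sorted, or whether replicates came from separate animals, so p-values measure the spread between these libraries, which may be technical.

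Ribosomal protein genes are transcribed in nearly all cells, and their products are made in matched amounts because a ribosome holds a single copy of most of them. Many of their messenger RNAs begin with a run of pyrimidines, the terminal oligopyrimidine tract, through which the kinase complex mTORC1 and the protein Larp1 adjust how much of each message is translated. The genes are also known for the many processed pseudogenes that copy their transcripts elsewhere in the genome, which affects how short reads are assigned to them.

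The start sites show what these genes share in sequence. RefSeq start windows (GRCm38.p6) were matched for 59 of the 79 genes, with 71 start sites in all. A run of 5 or more pyrimidines (C or T, on the gene's own strand) that held the first transcribed base was present at 20 of 71 starts (28.2%), against 10.1% of 32851 starts of all genes. A run of that length touched the stretch from 5 bases before to 5 bases after the start at 35 of 71 starts (49.3%), against 31.4% of all starts. In the separate GENCODE vM21 annotation, 9 of 79 transcripts (11.4%) opened with C followed by 4 or more pyrimidines. The share was 2.21% of 10007 transcripts of tested protein-coding genes, a set that includes ribosomal protein genes. The windows below run from 15 bases before the start to 15 bases from it onward, with the longest pyrimidine run that touches the start region in capitals. The first 5 carry a run across the start and show the common form of the tract; Rps9 is shown because its level differed between the groups. The runs are matches of letters and were not tested as sites of regulation.
Rpl35, chr2:39005117-39005146, minus strand: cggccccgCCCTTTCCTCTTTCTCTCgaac
Rpl38, chr11:114668565-114668594, plus strand: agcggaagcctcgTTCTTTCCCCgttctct
Rplp2, chr7:141447636-141447665, plus strand: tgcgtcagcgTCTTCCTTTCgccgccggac
Rps6, chr4:86857353-86857382, minus strand: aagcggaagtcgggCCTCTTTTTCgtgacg
Rps18, chr17:33955651-33955680, minus strand: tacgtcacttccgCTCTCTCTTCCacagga
Rps9, chr7:3704026-3704055, plus strand: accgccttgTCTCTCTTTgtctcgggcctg

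Rpl4, Rps4x and Rps3 are shown as abundant or called members without such a run at the RefSeq first base. The most abundant member, Rpl4, had its run upstream of the RefSeq start. In GENCODE the gene begins at chr9:64173375, within that run, and its transcript opened with 8 pyrimidines. Rps4x, which fell in the knockout, had a longest run of only 3 pyrimidines in this region, and Rps3, the most abundant small subunit gene, a run of only 2.
Rpl4, chr9:64173372-64173401, plus strand: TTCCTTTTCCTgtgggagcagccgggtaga
Rps4x, chrX:102189377-102189406, minus strand: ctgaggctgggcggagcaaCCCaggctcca
Rps3, chr7:99483695-99483724, minus strand: cttgcaagggTCgccgcgctgcgcggcgtc

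All 79 genes were matched to GENCODE vM21 (mm10 coordinates) and lay on 19 chromosomes. Their representative transcripts were short, with a median of 833 bases (345 to 5179) against 2935 bases for all tested protein-coding genes. A small nucleolar RNA gene lay inside 30 of the 79 genes (38.0%) on the same strand. The share was 1.78% of 10011 tested protein-coding genes, a set that includes ribosomal protein genes. A gene on the other strand overlapped 21 of 79 (26.6%), against 44.9% of that set. The deposited counts carry no stated strand setting, so reads of such overlapping pairs cannot be told apart.

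Much of the sequence of these transcripts also occurs in other genes. Of all 50-base windows of a transcript, the median share found in no other annotated gene was 46.7% (1.35% to 100%), and 45 of 79 genes were below 50%. Windows were shared with at least 1 other gene by 77 of 79 transcripts, with a median of 10 genes, and 77.4% of these pairs were with annotated pseudogenes. The extreme was the large subunit gene Rpl7a, which shared windows with 123 genes, 120 of them pseudogenes. Fewer than 10% of windows were unique in Rpl5, Rpl9, Rpl10, Rpl35 and Rps27. Genes that overlap a member at its own locus were counted among the other genes. Fam69a overlaps Rpl5 on the other strand, and Arpc5l and Wdr38 overlap Rpl35. Rpl5 shared windows with 15 genes, 14 of them pseudogenes, and Rpl35 with 12, 7 of them pseudogenes. Overlap at the locus was not separated from copies elsewhere. The muscle paralog Rpl3l was among the 2 genes that shared no window with another gene.

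**Figure D1:**
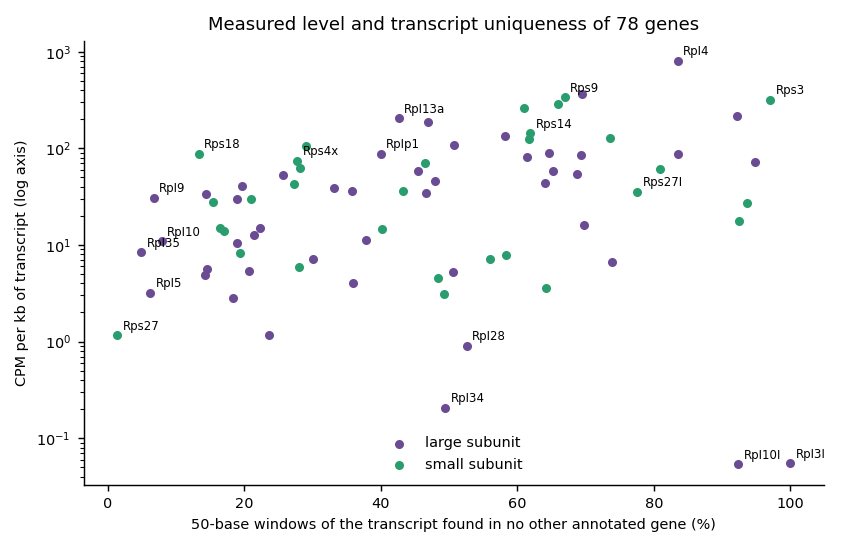
Measured level, as scaled counts (CPM) per kilobase of transcript on a log axis (mean over 6 libraries), against the percent of 50-base transcript windows found in no other annotated gene, for 78 of the 79 ribosomal protein genes. The 5 genes with under 10% unique windows lie between 1.16 and 30.9 CPM per kb, and Rpl3l and Rpl10l are lowest although more than 90% of their windows are unique.

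Levels between genes were compared as CPM (read counts scaled to a library of standard size, after TMM scaling) per kilobase of the representative transcript. They ran from 0.0535 CPM per kb for Rpl10l to 805 CPM per kb for Rpl4, around a median of 34.5. The median was 8.44 CPM per kb for the 5 genes with under 10% unique windows, 28.8 for the 40 genes with 10% to under 50%, 84.2 for the 26 with 50% to under 90%, and 49.7 for the 8 with 90% or more. Across the 79 genes, Spearman's correlation between the unique share and the level per kb was 0.38; genes are not independent and the points share the same 6 libraries. The sources used here do not give the read length, and how the authors' counting treated reads with several matches was not tested.

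Named genes show the same span. Among the highest were Rpl4 at 805 CPM per kb, Rpl32 at 370, Rps9 at 339 and Rps3 at 318. Rpl5, which with Rpl11 carries the 5S ribosomal RNA into the large subunit, stood at 3.21 CPM per kb with 6.16% of its windows unique. Rps27 stood at 1.16 CPM per kb with 1.35% unique. Its paralog Rps27l stood at 35.5 CPM per kb with 77.6% unique. For Rps15a and Rps20 the annotated transcripts were unusually long, 5179 and 3706 bases, and their levels per kb of 27.3 and 17.9 depend on that choice. The values of Rpl5 and Rps3 also rest on long transcripts, of 2045 and 1908 bases against the median of 833.

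The libraries held 8408325 to 11714365 counts. Arhgef1 itself, the check of the labels, stood at 287, 317 and 246 CPM in WT and 115, 128 and 144 CPM in the knockout (log2 fold change -1.13 ± 0.11 SE, edgeR Benjamini-Hochberg adjusted p = 6.96e-06). Of 12 cDC2 markers, 11 were well expressed, from 32.1 CPM (Esam) to 7612 CPM (H2-Ab1) on average, while Clec10a was at 0.390 CPM in WT and 0.278 in the knockout. By the labels, lane 1 of a run held the WT libraries and lane 2 of another run the knockout libraries, so lane and genotype cannot be told apart.

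Within the ribosomal protein genes, counts were concentrated in a few. The 5 most abundant held 44.7% of their counts and the first 50% was reached with 7 genes. Rpl4 and Rps3 alone held 30.1% to 31.4% in WT libraries against 31.7% to 33.0% in knockout libraries. At the other end, 29 of the 79 genes had fewer than 100 counts in at least 1 library, and 8 had fewer than 20 in every library. Rpl10l, known as a testis paralog, had 1, 0 and 0 counts in WT and 2, 0 and 0 in the knockout. Rpl3l, known as a muscle paralog, had 0, 0 and 2 counts in WT and 1, 1 and 0 in the knockout. Rpl34 had 3, 0 and 0 in WT and 0, 3 and 0 in the knockout. Rpl30 had 6, 9 and 6 counts in WT and 4, 6 and 7 in the knockout. These 4 genes and Rps27 were too low to be tested. A count of 0 allows up to 3 counts, or 0.256 to 0.354 CPM depending on the library.

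**Figure D2:**
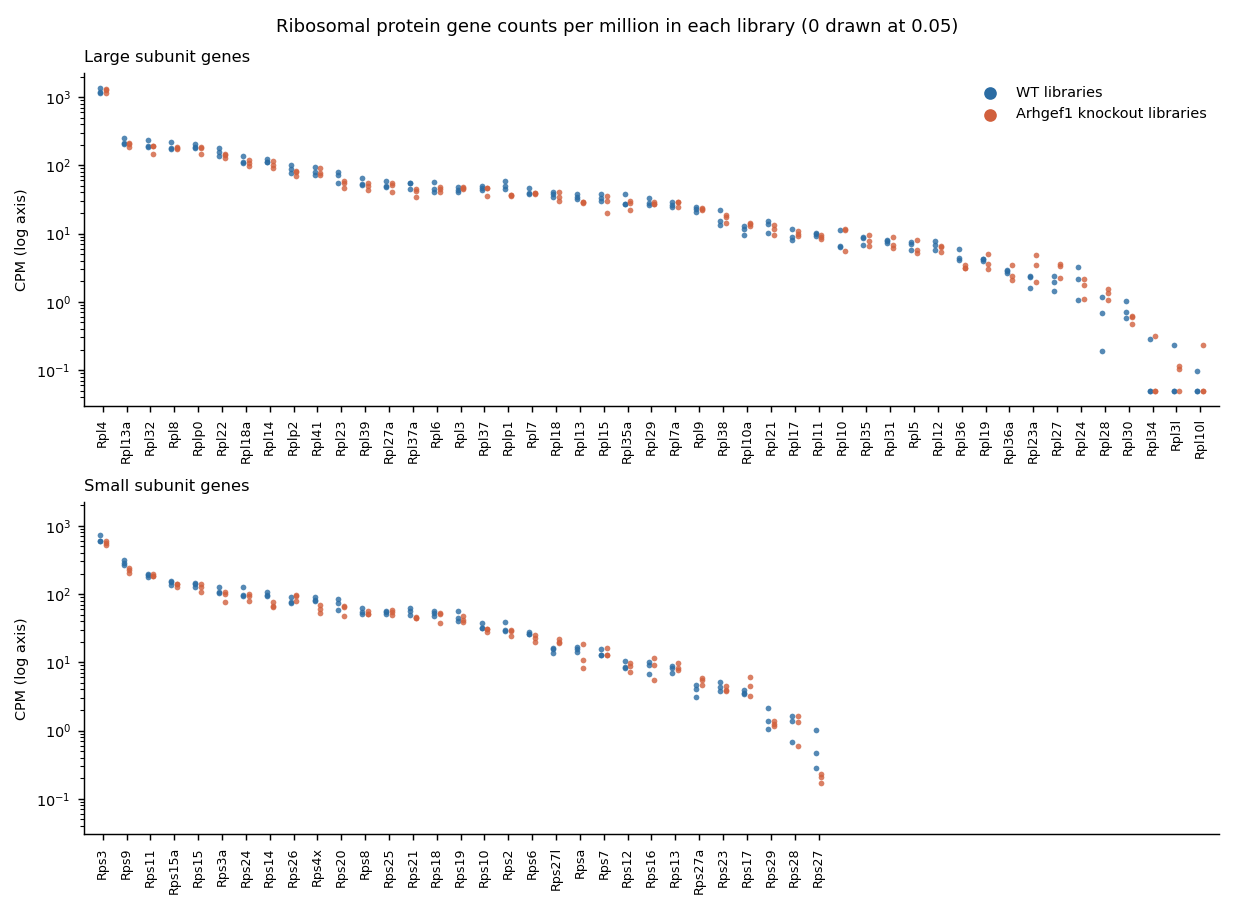
CPM on a log axis in each of the 3 WT and 3 knockout libraries, for 47 large subunit genes and 31 of the 32 small subunit genes ordered by mean level; values of 0 are drawn at 0.05. Rpl4 and Rps3 stand highest in their subunits, and for most genes the WT and knockout points overlap.

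The share of all counts taken by ribosomal protein genes overlapped between the genotypes. The share was 0.572%, 0.568% and 0.678% in replicates 1, 2 and 3 of WT, and 0.585%, 0.600% and 0.512% in those of the knockout. WT replicate 3 was the highest library and knockout replicate 3 the lowest, and the groups overlapped. The means were 0.606% ± 0.0625 (SD, n = 3) in WT and 0.566% ± 0.0470 (SD, n = 3) in the knockout, a difference of -0.0406 percentage points that was smaller than either SD. Counting error was far smaller than this spread, with 95% Wilson intervals of at most ± 0.0055 percentage points around each library's share. Large subunit genes took 0.336% ± 0.0348 in WT and 0.323% ± 0.0264 in the knockout, and small subunit genes 0.270% ± 0.0279 and 0.242% ± 0.0206. Without WT replicate 3 the difference in the total share was -0.00452 percentage points, and without knockout replicate 3 it was -0.0137. In bulk RNA, fewer cells with much ribosomal protein RNA and less of this RNA per cell cannot be told apart.

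The genes stood high or low together from library to library. For each of the 74 genes that passed the filter on low counts, the log2 CPM in a library was set against the gene's mean over the 6 libraries. The median of these deviations was -0.00, -0.03 and 0.23 in replicates 1, 2 and 3 of WT and -0.03, 0.03 and -0.18 in those of the knockout. WT replicate 3 therefore stood highest and knockout replicate 3 lowest, with the other 4 libraries close to 0. WT replicate 3 was the highest of the 6 libraries for 48 of the 74 genes (64.9%), against 17.5% of all tested genes. Knockout replicate 3 was the lowest for 43 of 74 (58.1%), against 18.3% of all tested genes.

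Both subunits had this pattern. In WT replicate 3 the median deviation was 0.24 for large and 0.20 for small subunit genes, and in knockout replicate 3 it was -0.17 and -0.18. Other protein-coding genes with transcripts under 1000 bases (n = 499) had a median deviation of 0.12 in WT replicate 3 and -0.01 in knockout replicate 3. Protein-coding genes of 3000 bases or more (n = 4848) had -0.03 and 0.02. The 23 translation factors and related messages had 0.11 and -0.19. In knockout replicate 2 this list stood at 0.12, as high as in WT replicate 3, and the genes under 1000 bases at 0.08. The part of transcript length in the pattern was not tested.

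**Figure D3:**
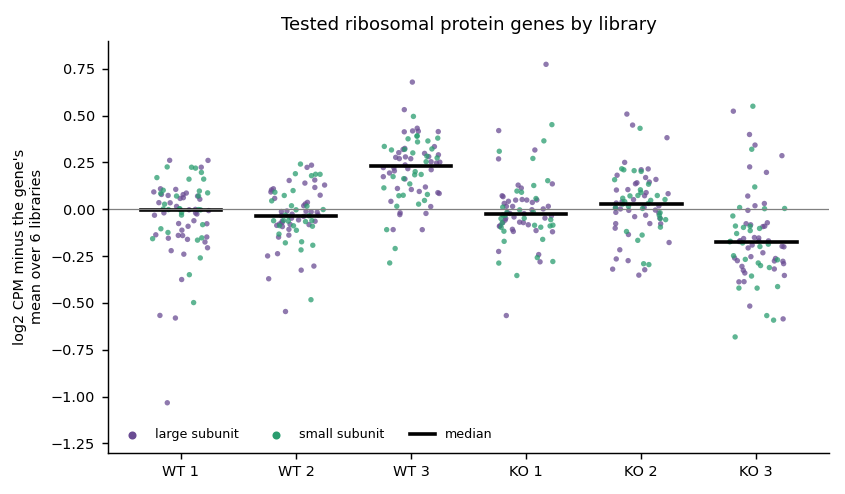
Log2 CPM minus the gene's own mean over 6 libraries, 1 point per tested ribosomal protein gene (43 large, 31 small subunit), with a bar at the median of each library. The median is 0.23 in WT 3 and -0.18 in KO 3, and between -0.03 and 0.03 in the other 4 libraries.

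Between WT and knockout, 4 ribosomal protein genes fell and none rose. Rps14, Rps9 and Rps4x of the small subunit and Rplp1 of the large subunit were lower in the knockout by edgeR's quasi-likelihood test at a Benjamini-Hochberg adjusted p under 0.05. This is 5.41% of the 74 tested genes, where 4.58% of all 11504 tested genes were lower and 5.09% higher, so the share of lower calls was near that of all genes. At an unadjusted p under 0.05, 0 ribosomal protein genes were higher and 9 lower (12.2%; all genes 11.6% higher and 10.7% lower). DESeq2 called 0 higher and 4 lower of the 70 members that it gave an adjusted p (all genes: 6.74% higher, 6.01% lower), and limma-voom 0 and 3 of 74 (all genes: 4.77% and 4.67%).

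Most of the remaining genes had small negative values. The median log2 fold change of the 74 genes was -0.12, against 0.00 for all tested genes, and 57 of 74 were negative (77.0%), against 49.9% of all genes. The values ran from -0.56 to 0.95, with quartiles at -0.22 and -0.01, and the median standard error was 0.16. Knockout and WT values did not overlap for 9 genes that were lower (12.2%; all genes 13.5%) and 3 that were higher (4.05%; all genes 13.7%). The 28 genes with a mean of at least 50 CPM had a median of -0.18, with 26 negative and 3 that fell, and the 46 tested genes below that level had a median of -0.10 and 1 that fell. The 95% interval of the fold change lay within 1.5-fold either way for 36 of the 74 genes, so for the other 38 a change of that size was not bounded by these libraries.

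Leaving out WT replicate 3 gave 0 genes lower and a median of -0.06, and leaving out knockout replicate 3 gave 1 lower, Rps14, and a median of -0.06. Over all tested genes, 351 of 11834 were lower without WT replicate 3 and 382 of 11768 without knockout replicate 3. With all libraries it was 527 of 11504. Leaving out WT replicate 1 gave 1 lower, WT replicate 2 gave 2, knockout replicate 1 gave 2 and knockout replicate 2 gave 3. In the same order, 264 of 11756, 315 of 11831, 489 of 11792 and 311 of 11769 of all tested genes were lower. With both replicates 3 left out, 0 ribosomal protein genes were called and the median was 0.04. This alternative was chosen after seeing the data and removes the highest WT and the lowest knockout library. In that fit 346 of all 11629 tested genes were higher and 323 lower.

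**Figure D4:**
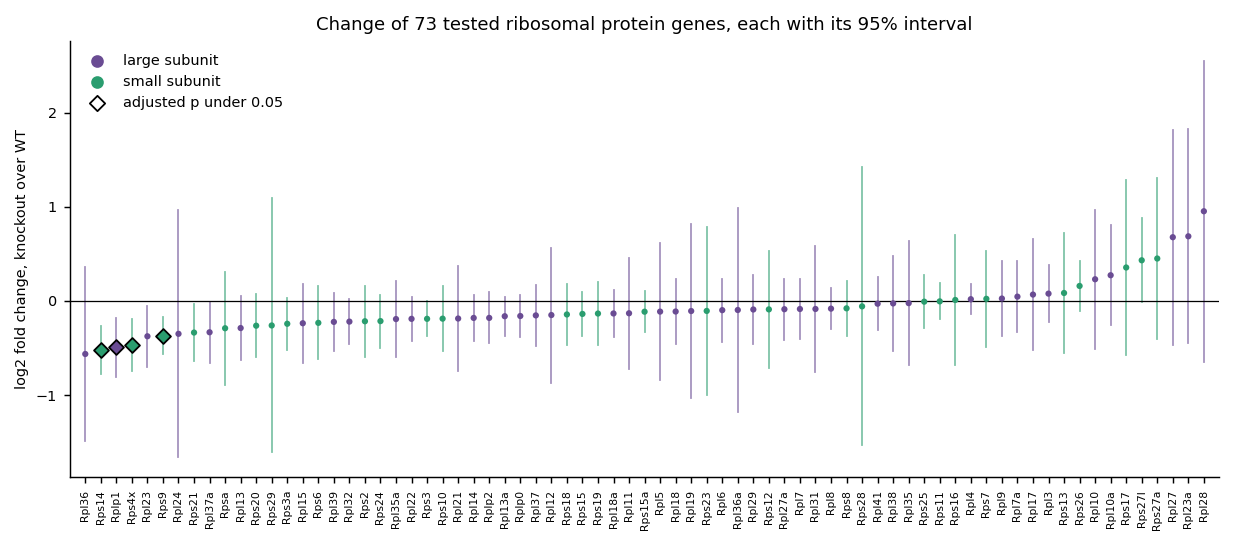
Log2 fold change (knockout over WT) with its 95% interval for 73 of the 74 tested ribosomal protein genes, ordered by value; diamonds mark an adjusted p under 0.05 by edgeR. The 4 diamonds lie between -0.52 and -0.37, and the widest intervals belong to genes with few counts, such as Rpl28 at 0.95.

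Rps14, a protein of the small subunit platform whose gene is lost in a deletion form of human myelodysplastic syndrome, had the smallest p. Its level was 97.4, 95.2 and 109 CPM in WT and 65.3, 76.9 and 67.3 CPM in the knockout. The groups did not overlap, and the knockout mean of 69.8 ± 6.23 CPM (SD, n = 3) was 69.6% of the WT mean of 100 ± 7.20 CPM. The log2 fold change was -0.52 ± 0.12 (SE; edgeR, Benjamini-Hochberg adjusted p = 0.00924). The gene (ENSMUSG00000024608.11) spans chr18:60747098-60778546 on the plus strand, where Ndst1 overlaps it on the other strand. With WT replicate 3 left out it was not called (-0.46).

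Rps9, which lies near the decoding site and the path of the incoming message, stood at 282, 265 and 314 CPM in WT and 237, 224 and 204 CPM in the knockout. The groups did not overlap, and the 3 knockout libraries together averaged 222 ± 16.6 CPM, 77.4% of the WT mean of 287 ± 24.8 CPM. The log2 fold change was -0.37 ± 0.09 (edgeR adjusted p = 0.0183). The gene (ENSMUSG00000006333.14) spans chr7:3703993-3706897 on the plus strand. It was not called with WT replicate 1 (-0.38), WT replicate 3 (-0.30) or knockout replicate 3 (-0.31) left out.

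Rps4x, the X-linked gene for a small subunit protein that has a Y-linked counterpart in humans, stood at 80.0, 81.6 and 91.9 CPM in WT and 59.7, 69.9 and 53.3 CPM in the knockout. The groups did not overlap, with means of 84.5 ± 6.45 and 61.0 ± 8.38 CPM (72.1% of WT). The log2 fold change was -0.47 ± 0.13 (edgeR adjusted p = 0.0310). The gene (ENSMUSG00000031320.9) spans chrX:102184941-102189394 on the minus strand, and 27.8% of its transcript windows were unique. It was not called with a WT library left out (-0.51, -0.50 and -0.41 for replicates 1, 2 and 3), or with knockout replicate 1 (-0.45) or 3 (-0.38) left out.

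The stalk of the large subunit, which recruits the elongation factors, is built from Rplp0 and the acidic proteins Rplp1 and Rplp2. Rplp1 stood at 50.6, 45.0 and 58.5 CPM in WT and 36.9, 37.1 and 35.6 CPM in the knockout. The knockout libraries were close together at 36.6 ± 0.802 CPM and all below WT at 51.4 ± 6.78 CPM (71.2% of WT; log2 fold change -0.49 ± 0.15, edgeR adjusted p = 0.0455). The gene (ENSMUSG00000007892.8) spans chr9:61913284-61914542 on the minus strand. Its call did not hold when any 1 library was left out: the value was -0.50, -0.58 and -0.39 without replicate 1, 2 or 3 of WT, and -0.49, -0.51 and -0.47 without those of the knockout. It was also lost with unscaled total counts (-0.46), without the filter (-0.49) and with limma-voom (-0.48).

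The other stalk proteins did not pass the test. Rplp0 stood at 179, 184 and 208 CPM in WT and 186, 179 and 147 CPM in the knockout (-0.16 ± 0.11). Rplp2 stood at 87.6, 76.6 and 100.4 CPM in WT and 79.9, 83.6 and 70.2 CPM in the knockout (-0.18 ± 0.13). Both pairs of groups overlapped, and whether Rplp1 differed from its stalk partners was not tested.

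Rps3, at the entry of the channel through which the message passes, stood at 603, 602 and 735 CPM in WT and 567, 607 and 526 CPM in the knockout (-0.19 ± 0.09, edgeR adjusted p = 0.216). WT replicate 3 was highest and knockout replicate 3 lowest, the groups overlapped, and the unadjusted p was under 0.05. Rps3 was not called, and neither were 3 other genes with an unadjusted p under 0.05: Rpl23 (-0.38 ± 0.15), Rps21 (-0.34 ± 0.14) and Rpl37a (-0.33 ± 0.16).

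The genes for proteins that line the tunnel through which the new chain leaves did not pass the test. Rpl4 stood at 1160, 1188 and 1341 CPM in WT and 1249, 1327 and 1160 CPM in the knockout. Its log2 fold change of 0.02 ± 0.08 (edgeR adjusted p = 0.926) had a 95% interval of -0.14 to 0.18. Rpl39, a small tunnel protein, stood at 57.1 ± 6.92 CPM in WT and 48.9 ± 5.58 in the knockout (-0.22 ± 0.15). Rpl23a, at the tunnel exit, had only 14 to 41 counts per library, with 2.09 ± 0.415 CPM in WT and 3.38 ± 1.40 in the knockout (0.69 ± 0.54).

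The 5S particle proteins Rpl5 and Rpl11, which also bind Mdm2 when ribosome assembly is disturbed, were counted at low levels. Rpl5 stood at 5.75, 7.14 and 7.55 CPM in WT and 7.92, 5.27 and 5.71 CPM in the knockout (-0.11 ± 0.35). Rpl11 stood at 10.1, 9.21 and 9.91 CPM in WT and 8.96, 9.52 and 8.19 CPM in the knockout (-0.13 ± 0.28). The groups overlapped in both, and the 95% interval for Rpl5, -0.84 to 0.61, left changes of 1.5-fold in either direction unbounded. Rpl10, which joins the large subunit late in its maturation, stood at 8.07 ± 2.82 CPM in WT and 9.41 ± 3.42 in the knockout (0.23 ± 0.35).

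Several members are known for roles beyond the core of the ribosome. Rps6, the substrate of the S6 kinases, stood at 26.0, 26.0 and 27.6 CPM in WT and 19.9, 25.2 and 22.5 CPM in the knockout. The groups did not overlap, but the log2 fold change of -0.23 ± 0.18 did not pass the test (edgeR adjusted p = 0.507). Rpl13a, which in myeloid cells can restrain the translation of inflammatory messages, stood at 226 ± 24.6 CPM in WT and 202 ± 14.2 in the knockout (-0.16 ± 0.10). Rpl22, needed for the development of T cells, stood at 158 ± 20.9 and 138 ± 9.74 CPM (-0.19 ± 0.11). Rps19, a gene mutated in Diamond-Blackfan anaemia that lies on chromosome 7 at chr7:24884371-24889806, stood at 47.0 ± 7.87 and 42.8 ± 3.93 CPM (-0.13 ± 0.16). None of these 4 genes passed the test.

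Rpsa, also known as a laminin receptor, stood at 14.3, 15.4 and 16.5 CPM in WT and 18.7, 11.0 and 8.27 CPM in the knockout (-0.29 ± 0.29), so that the knockout libraries lay on both sides of WT. Rpl38, known for selective translation during patterning of the embryo, stood at 17.0 ± 4.70 CPM in WT and 16.7 ± 2.06 in the knockout (-0.03 ± 0.24). Rpl41, which encodes a very short peptide, stood at 82.0 ± 10.8 and 80.3 ± 10.1 CPM (-0.03 ± 0.13). For Rpl41 the 95% interval ran from -0.31 to 0.25 on the log2 scale, which lies within 1.5-fold.

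The 3 genes whose knockout values all lay above WT were Rps27l, Rps27a and Rpl10a, and none passed the test. Rps27l, a p53-inducible paralog of Rps27, stood at 13.6, 15.4 and 16.2 CPM in WT and 21.8, 20.2 and 19.0 CPM in the knockout (0.43 ± 0.21, edgeR adjusted p = 0.240). Rps27 itself had 3, 9 and 4 counts in WT and 2, 2 and 2 in the knockout and was not tested. Rps27a, made as a fusion with ubiquitin, stood at 4.02, 3.11 and 4.60 CPM in WT and 5.59, 4.65 and 5.80 CPM in the knockout (0.45 ± 0.41, edgeR adjusted p = 0.575). The largest positive values, in Rpl28 (0.95 ± 0.76), Rpl23a and Rpl27 (0.68 ± 0.54), and the largest negative value, in Rpl36 (-0.56 ± 0.44), belonged to genes with at most 50 counts in every library, and none passed the test.

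The balance of the subunits was described as the ratio of all large subunit counts to all small subunit counts in a library. It was 1.22, 1.27 and 1.24 in WT and 1.33, 1.33 and 1.34 in the knockout. Every knockout library lay above every WT library, with means of 1.24 ± 0.0235 (SD, n = 3) and 1.33 ± 0.00559 and a difference of 0.0901. Among tested genes, 1 of 43 large subunit genes fell (median log2 fold change -0.11) and 3 of 31 small subunit genes fell (median -0.14). Of all tested genes 4.58% fell. The called genes are also part of the ratio, and a difference in calls between the subunits was not tested.

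The size of the difference depended on which genes were summed. Without the 3 most abundant of each subunit it was 1.18 ± 0.0314 in WT and 1.19 ± 0.0152 in the knockout, a difference of 0.00719, and the groups overlapped. Without Rpl4 alone it was 0.793 ± 0.0120 and 0.813 ± 0.00602, a difference of 0.0209, and without the 4 genes that fell it was 1.48 ± 0.0313 and 1.54 ± 0.00738, a difference of 0.0654; in both cases every knockout library stayed above every WT library. The mean log2 CPM of large minus small subunit genes, which weights each gene equally, was -0.43 ± 0.05 in WT and -0.38 ± 0.03 in the knockout. The difference of 0.0431, in log2 units, was smaller than the WT SD of 0.0539. On this measure the groups overlapped, as WT replicate 3 (-0.376) lay above knockout replicates 1 (-0.384) and 2 (-0.411).

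**Figure D5:**
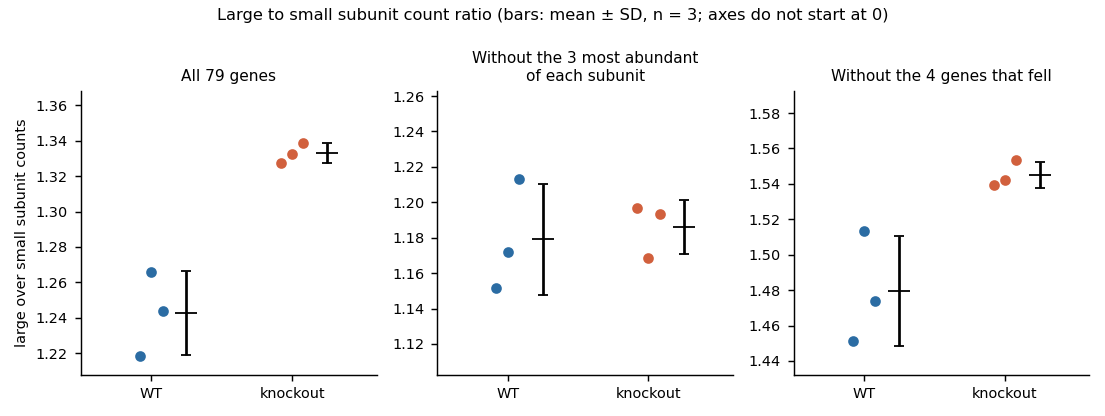
Ratio of large to small subunit counts in each WT and knockout library, with the mean and SD (n = 3), for all 79 genes, without the 3 most abundant genes of each subunit, and without the 4 genes that fell; the axes do not start at 0 and cover equal spans. All knockout libraries lie above WT with all genes (1.33 against 1.24), and the groups overlap without the most abundant genes (1.19 against 1.18).

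Genes that work with the ribosomal proteins gave few calls. Of 6 ribosomal proteins and paralogs whose symbols the rule did not match, 1 rose and 0 fell: Rpl7l1, a nucleolar relative of Rpl7, went from 24.9 CPM in WT to 38.2 CPM in the knockout (0.62 ± 0.17, edgeR adjusted p = 0.0279). Gnb2l1, which encodes the small subunit scaffold Rack1, stood at 348 and 299 CPM (-0.22 ± 0.10) and was not called. The median of the 6 was -0.19. Rpl7l1 was not called with a WT library left out (0.58, 0.67 and 0.61 for replicates 1, 2 and 3), or with knockout replicate 2 (0.58) or 3 (0.55) left out.

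Of 23 translation factors and related messages, 1 rose and 0 fell, with a median of 0.00. The list holds messages that carry the tract or are often listed with it, and their own start sites were not examined. The gene that rose was Naca, a subunit of the complex that binds new chains at the ribosome, at 131, 126 and 125 CPM in WT and 152, 148 and 186 CPM in the knockout (0.35 ± 0.11, edgeR adjusted p = 0.0470). Every knockout library was above every WT library. Naca was not called with a WT library left out (0.37, 0.34 and 0.34 for replicates 1, 2 and 3), or with knockout replicate 3 left out (0.24).

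Of 20 ribosomal protein chaperones and late maturation factors, 1 rose and 0 fell, with a median of 0.05. Heatr3, which takes part in the import of Rpl5, went from 24.4 to 36.5 CPM (0.58 ± 0.17, edgeR adjusted p = 0.0366). It was not called with a WT library left out (0.56, 0.59 and 0.61 for replicates 1, 2 and 3), or with knockout replicate 2 (0.49) or 3 (0.60) left out.

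Of 20 regulators of mTORC1 and of the tract, 1 rose and 0 fell, with a median of 0.11. Myc, a transcription factor that drives ribosome production, stood at 72.0, 63.3 and 74.9 CPM in WT and 95.8, 106 and 98.5 CPM in the knockout (0.52 ± 0.12, edgeR adjusted p = 0.00943). All knockout libraries were above WT, but Myc was not called without WT replicate 2 (0.45). For these 4 lists the counts stand beside 5.09% of all genes higher and 4.58% lower.

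Markers of other cells and of division moved with genotype in the same libraries. All 16 cell cycle markers rose (median log2 fold change 1.06), and their summed share of counts was 0.172% to 0.202% in WT libraries against 0.366% to 0.424% in knockout libraries. These markers were listed with their rise in the knockout already known from an earlier report, so the count is not an independent result. Of 19 tested macrophage markers, 14 fell and 0 rose (median -1.73), and their share was 0.104% to 0.147% in WT libraries against 0.0562% to 0.0720% in knockout libraries; none of them was at 0 in both groups. In replicate 3 of WT, where ribosomal protein genes were highest, the macrophage share was the lowest of WT at 0.104%, and in replicate 3 of the knockout, where they were lowest, it was 0.0562%, close to the 0.0563% of replicate 2. None of 8 B cell markers and none of 4 tested erythroid, neutrophil and platelet markers was called, 1 of 5 T and NK cell markers rose, and 1 of 10 plasmacytoid and cDC1 markers fell. Among the cDC2 markers 5 of 11 fell and 0 rose. The part of these cells and of division in the ribosomal protein values was not tested.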

How the data were processed

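RNA of 3 WT and 3 Arhgef1-/- cDC2 libraries was measured as read counts per gene symbol. The deposited values were raw counts, whole numbers with no normalization; per the submitters' processing notes, the tools were STAR, HTSeq and DESeq2 and the build was mm10. The sources used here do not give versions, annotation, strand setting or read length, nor why the table holds 14788 symbols. Groups and replicate numbers came from the sample titles.

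The main test was edgeR 4.0.16 (R 4.3.3): filterByExpr (11504 genes left), TMM scaling (factors 0.977 to 1.02), a quasi-likelihood fit with genotype on all 6 libraries, and a Benjamini-Hochberg adjusted p under 0.05 over all tested genes. The common biological coefficient of variation was 0.189. CPM used TMM-scaled library sizes; log2 deviations used a pseudocount of 0.5 CPM. The standard error was the fold change divided by the root of its F value. The procedure was tested on simulated data. It called 36% of genes set to a fold of 0.667 and 50% of those set to 1.5. At folds of 2 and 4 it called 82% and 100%. There were 7 false calls among 11345 tested genes. Many changes of 1.5-fold would therefore not pass the test. Totals of 8408325 to 11714365 counts set the precision, and Wilson intervals and count floors cover counting error only. Shares, ratios and levels per kb have no test, since the genes were chosen as a set; libraries of a group differed by more than counting noise, so none was taken for a repeat deposit of another.

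Alternatives were other scalings, filters, DESeq2 1.42.0, limma-voom (limma 3.58.1), the replicate number as a block, each library left out, other denominators, the most abundant genes left out and 100-base windows. Leaving out both replicates 3, the called genes or Rpl4 was chosen after seeing the data.

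The members and lists were chosen with earlier results of these data known. The rule for named genes took called members, the 5 highest and 5 lowest in CPM, the 3 largest changes each way, 20 preset members, and up to 4 genes with the smallest p of each related list. Other genes (Rpl7a, Rpl9, Rpl10a, Rpl23, Rpl32, Rpl35, Rpl37a, Rps15a, Rps18, Rps20, Rps21) were named after their values were seen. Some genes that this rule takes are only counted, and 1 member is not reported here by name and is not drawn in the plots that name genes.

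Transcripts came from GENCODE vM21, 1 per gene (RefSeq match, then APPRIS, basic set, support level, shortest). Uniqueness was computed against annotated transcripts of other genes on both strands, in place of a genome. Start windows came from RefSeq, build GRCm38.p6.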

Additional observations from a re-analysis of the deposited data

How the results depend on the processing

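Depth limits the 29 genes with fewer than 100 counts in at least 1 library, and shared sequence limits levels between genes. The number of members that fell was 3 or 4 under every other scaling, filter and tool, and no member rose under any alternative run. Leaving out 1 library gave 0 to 3 members lower (0 without WT replicate 3). Leaving out both replicates 3, chosen after seeing the data, gave 0 lower, a median log2 fold change of 0.036 and a share difference of 0.0223 percentage points; by construction it removes the extreme libraries, and the 4 calls were lost at -0.43 (Rps14), -0.24 (Rps9), -0.31 (Rps4x) and -0.36 (Rplp1). Median log2 fold changes ran from -0.15 to -0.09 across scalings and from -0.20 to -0.06 with 1 library left out. The share difference was -0.0526 without Rn45s and Malat1 in the denominator and -0.0676 without the 50 most abundant other genes. The ratio difference of 0.0901 moved to 0.00719 without the 3 most abundant of each subunit, 0.0654 without the 4 genes that fell and 0.0209 without Rpl4. It ran from 0.0780 to 0.102 with 1 library left out. The difference of mean log2 CPM, 0.0431, is in log2 units and is not on the scale of these ratios. With 100-base windows, 33 members in place of 45 were under 50% unique. Same-numbered libraries did not deviate together (correlations 0.038, -0.033 and -0.033), and differently numbered ones gave -0.033 to 0.062. These values show no pairing by number, but with 3 libraries per group they cannot exclude it. With the replicate number as a block, 0 members rose, 3 fell, the median was -0.13, and 496 of all genes rose and 449 fell. The calls of Rplp1 (-0.48), Naca (0.34) and Heatr3 (0.58) were lost under the block. Naca was also lost with upper-quartile scaling (0.33) and limma-voom (0.35). Over all tested genes, 586 rose and 527 fell with all libraries, 334 and 264 without WT replicate 1, 310 and 315 without WT replicate 2, and 319 and 311 without knockout replicate 2. Upper-quartile scaling gave 500 and 583, and unscaled total counts 692 and 431. Among the named genes, 427 results kept direction and side of the threshold, 45 lost the call and 18 changed sign, none of them for a gene called in either fit. Without 1 library in turn, Rpl4 (0.02 with all libraries) ran from -0.033 to 0.086, Rpl38 (-0.03) from -0.17 to 0.216, Rpl41 (-0.03) from -0.14 to 0.079 and Rps19 (-0.13) from -0.23 to 0.0071. Rpl4 was -0.0059 with upper-quartile scaling, and with unscaled totals Rpl38 was 0.0059 and Rpl41 0.0026. With both replicates 3 left out, Rplp0 was 0.011, Rpsa 0.0028, Rps19 0.074, Rpl5 0.038, Rpl38 0.317 and Rpl41 0.154.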
